A study of Mus musculus with 4 samples.

Results

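Among the macrophages of mouse ear dermis, 6 genes known mostly from neurons and neural progenitors, Septin3, Plxdc2, Nes, Dnm1, Cnrip1 and Gprc5b, were examined out of 22180 genes with a single symbol on the array. They were chosen by their measured difference between the sorted subsets, together with their neural reputation, so the differences given for them describe the choice and carry no test. The 4 arrays hold RNA from 2 sorted subsets, CX3CR1low and CX3CR1bright, with 2 replicates each. Every array carries a pool of 3 to 6 untreated adult C57Bl/6 mice, and the replicates of a subset came from independent litters. All animals were Cx3cr1+/gfp, with GFP in place of a Cx3cr1 allele, so both subsets come from mice with a single intact copy of the gene and the gate reads the activity of that locus. Values are RMA expression levels on the log2 scale, where a step of 1 is a 2-fold change.

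Nestin, the product of Nes, is the intermediate filament protein by which neural progenitors are usually recognised. SEPTIN3 is a septin, a GTP-binding protein of the cytoskeletal filaments at membranes, and is found at presynaptic terminals, while PLXDC2 is a single-pass membrane protein that binds pigment epithelium-derived factor and has been studied as a mitogen for neural progenitors. Dynamin 1 is the neuronal form of the GTPase that pinches clathrin-coated vesicles from the membrane and supports the recycling of synaptic vesicles. CNRIP1 binds the intracellular tail of the cannabinoid receptor CB1, and GPRC5B is an orphan receptor of class C, the class of the glutamate and GABA-B receptors, that is abundant in brain. Macrophages also remodel membranes and take up material by endocytosis.

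For 4 of the 6 genes the RefSeq promoter table (GRCm38.p6) held a sequence; Septin3 and Plxdc2 are named only. The 250 bases before the annotated start are shown because Dnm1, Cnrip1 and Gprc5b lay lower together in CX3CR1bright cells and Nes lay higher. Capitals mark matches, on either strand, to the MAF recognition core TGCTGA and to the Sp1 site GGGCGG.
Nes, chr3:87970843-87971092, plus strand: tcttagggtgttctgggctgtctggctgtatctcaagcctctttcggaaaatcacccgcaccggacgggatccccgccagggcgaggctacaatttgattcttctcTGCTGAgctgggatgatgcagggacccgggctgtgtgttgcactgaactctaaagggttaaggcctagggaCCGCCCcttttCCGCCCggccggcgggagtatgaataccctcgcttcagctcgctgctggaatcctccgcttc
Dnm1, chr2:32353330-32353579, minus strand: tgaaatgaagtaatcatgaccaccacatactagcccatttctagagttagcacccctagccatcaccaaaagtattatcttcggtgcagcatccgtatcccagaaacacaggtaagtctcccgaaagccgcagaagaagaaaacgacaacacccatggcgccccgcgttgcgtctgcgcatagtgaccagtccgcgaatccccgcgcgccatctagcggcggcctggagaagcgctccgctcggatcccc
Cnrip1, chr11:17051609-17051858, plus strand: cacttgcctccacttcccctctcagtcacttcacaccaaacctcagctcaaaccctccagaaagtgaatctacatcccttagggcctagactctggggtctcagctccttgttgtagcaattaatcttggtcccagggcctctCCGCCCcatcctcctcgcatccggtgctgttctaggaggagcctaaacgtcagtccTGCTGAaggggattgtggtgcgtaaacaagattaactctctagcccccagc
Gprc5b, chr7:118995212-118995461, minus strand: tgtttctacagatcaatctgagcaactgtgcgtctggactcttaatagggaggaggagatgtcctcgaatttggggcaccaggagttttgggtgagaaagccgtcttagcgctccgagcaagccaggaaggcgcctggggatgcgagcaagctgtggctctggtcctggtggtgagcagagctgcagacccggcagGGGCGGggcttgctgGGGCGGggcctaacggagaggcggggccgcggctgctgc

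Dnm1 had 20 CpG dinucleotides, Nes 15, Gprc5b 14 and Cnrip1 5, against a median of 6 over 32851 promoters of the same length. Matches to GGGCGG stood in Nes, Cnrip1 and Gprc5b, and 32.7% of all promoters hold that motif. TGCTGA stood in Nes, 144 to 139 bases before the start, and in Cnrip1, 51 to 46 bases before it, and is held by 16.1% of all. Both motifs were thus present in Nes and in Cnrip1, which lay on opposite sides. Any part of these motifs in the levels was not tested. Both parts of RE1, the element bound by the repressor of neuronal genes REST, were searched as TTCAGCACC (0.301% of all promoters) and GGACAG (18.7%), and neither was in these windows. GAGGAA for PU.1 (23.3%), CTAAAAATA for MEF2 (0.469%), TGANTCA for AP-1 (6.75%) and the TATA box TATAAA (12.4%) had no match in these letters either.

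The arrays matched their labels. Cx3cr1 itself read 3.63 and 3.60 on the CX3CR1low arrays and 8.42 and 8.44 on the CX3CR1bright arrays. Array medians were 3.65 to 3.68, and a value near them can be background. General macrophage genes were well represented, with all 14 of the 14 listed genes found on the array, Adgre1, Csf1r and Cd68 among them, above the median on every array. In bulk RNA, fewer cells that carry a transcript and less of it per cell cannot be told apart.

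Septin3, Plxdc2 and Nes lay higher in CX3CR1bright macrophages, and Dnm1, Cnrip1 and Gprc5b lay lower, with no overlap between the subsets for any of the 6. All 6 passed the filter on dim genes, which kept 13133 of the 22180. Of the tested genes, 2.94% lay at least 2-fold higher without overlap and 2.89% at least 2-fold lower without overlap; the 6 genes, 3 in each direction, were picked on this contrast, so nothing is read from their count. The split of those shares moved with the scaling of the arrays. It was 386 higher and 379 lower as deposited and 382 and 397 after median centring. After quantile normalization it was 429 and 297, and after cyclic loess 462 and 260.

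**Figure D1:**
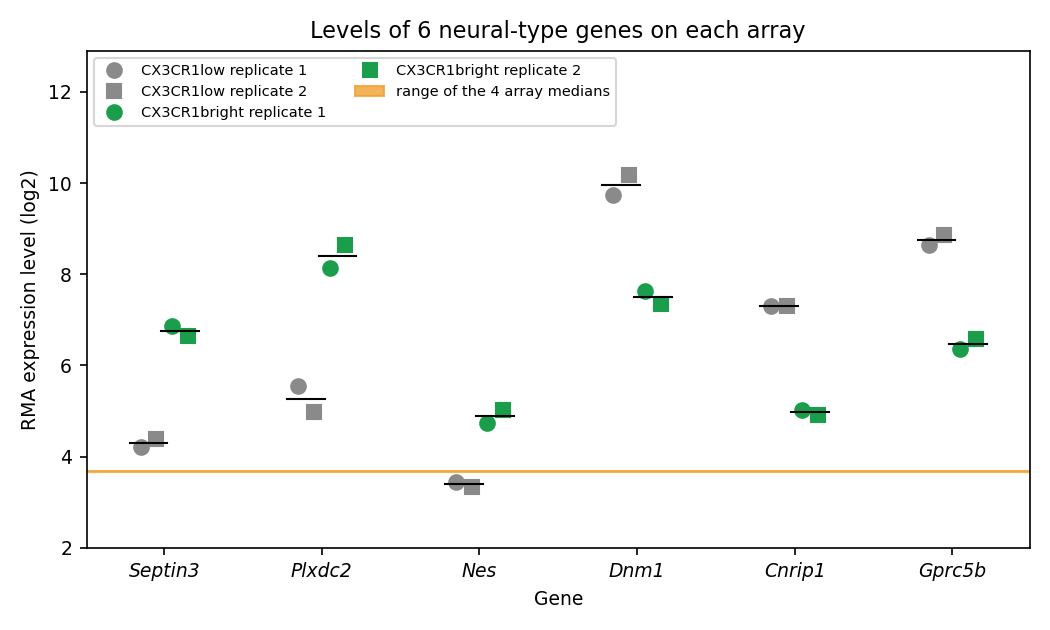
RMA expression level (log2, vertical axis) of the 6 genes on each of the 4 arrays; grey marks CX3CR1low and green CX3CR1bright, circles replicate 1 and squares replicate 2, short black lines the subset means, and the orange band the range of the 4 array medians, 3.65 to 3.68. The green points of Septin3, Plxdc2 and Nes lie above the grey ones, those of Dnm1, Cnrip1 and Gprc5b below, and the grey points of Nes lie under the band.

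Plxdc2 (transcript cluster 17367216) had the largest difference of the 6. It read 5.55 and 4.99 on CX3CR1low replicates 1 and 2 and 8.13 and 8.65 on CX3CR1bright replicates 1 and 2. Both CX3CR1bright arrays were high, and the closest arrays of the subsets lay 2.58 apart. The means were 5.27 ± 0.40 and 8.39 ± 0.36 (SD, n = 2), a difference of 3.12 on the log2 scale or 8.69-fold, and 6 tested genes lay further up. Its replicates were also the least alike of the 6, 0.57 apart in CX3CR1low and 0.51 in CX3CR1bright, where the median tested gene differed by 0.221 and 0.283.

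Septin3 (cluster 17313538) was dim in CX3CR1low cells, at 4.21 and 4.38, and read 6.86 and 6.65 in CX3CR1bright cells. The subsets lay 2.28 apart at the closest arrays, whereas the replicates lay 0.17 apart in CX3CR1low and 0.20 in CX3CR1bright. The means were 4.29 ± 0.12 and 6.76 ± 0.14 (SD, n = 2), a difference of 2.46 or 5.52-fold. The CX3CR1low values stood 0.52 and 0.72 above their array medians, so background may limit the fold.

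Nes (cluster 17398903) was the dimmest of the 6 and had the smallest difference. It read 3.45 and 3.33 on the CX3CR1low arrays, below both array medians, and 4.74 and 5.03 on the CX3CR1bright arrays, 1.07 and 1.35 above theirs. It passed the filter only through the CX3CR1bright arrays. The difference of 1.49, 2.82-fold, between means of 3.39 ± 0.078 and 4.88 ± 0.20 (SD, n = 2) therefore starts from a level that cannot be told from background, and 151 tested genes lay further up.

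Dnm1 (cluster 17383858) was the member with the largest difference on the lower side. It read 9.73 and 10.17 in CX3CR1low macrophages and 7.64 and 7.35 in CX3CR1bright macrophages. Neither subset was near background, since the lowest array stood 3.67 above its median. The means were 9.95 ± 0.31 and 7.49 ± 0.21 (SD, n = 2), a difference of -2.45, 5.48-fold, and 7 tested genes lay further down.

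Cnrip1 (cluster 17247438) had the closest replicates of the 6, at 7.31 and 7.30 in CX3CR1low cells and 5.03 and 4.92 in CX3CR1bright cells. The CX3CR1low arrays lay 0.017 apart, and 4.26% of tested genes had a smaller gap there. The means of 7.30 ± 0.012 and 4.97 ± 0.078 (SD, n = 2) differed by -2.33, 5.03-fold. Cyclic loess changed this to -2.20, a shift larger than its replicate SD.

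Gprc5b (cluster 17495610) read 8.64 and 8.85 in CX3CR1low cells and 6.35 and 6.58 in CX3CR1bright cells. Replicate 2 was higher than replicate 1 by 0.21 and 0.22, less than the 2.06 between the closest arrays of the subsets. The means were 8.74 ± 0.15 and 6.47 ± 0.16 (SD, n = 2), a difference of -2.28 or 4.85-fold.

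The 3 genes on the lower side also followed each other closely array by array. After each gene was centred on its own mean over the 4 arrays, Cnrip1 and Gprc5b were 0.29 apart (Euclidean distance on the log2 scale), Dnm1 and Cnrip1 0.37 and Dnm1 and Gprc5b 0.43. The 3 higher genes were further from each other, with 0.98 between Septin3 and Plxdc2, 1.05 between Septin3 and Nes and 1.67 between Plxdc2 and Nes. These distances hold the size of the subset difference, by which the genes were chosen, and are a description over 4 arrays.

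Among the other tested genes, the profile nearest to Nes was that of Efemp1, which encodes the matrix protein fibulin-3, at a distance of 0.054, followed by Galnt12, an enzyme of mucin-type O-glycosylation, at 0.15 and Crybg1 at 0.18. Nearest to Septin3 were the adaptor gene Stap1 at 0.17, Ccr7, the chemokine receptor of migrating dendritic cells, at 0.28 and Adam23 at 0.33. Plxdc2 stood further from its neighbours. They were Axl, a receptor for the apoptotic-cell bridge Gas6, at 0.51, Stat4 at 0.56 and Nt5e, the ectonucleotidase CD73, at 0.57. These distances also hold the size of the subset difference. Only 6 tested genes lay further up than Plxdc2, against 151 for Nes, so fewer genes could lie near it. On the lower side Chp2, which binds sodium-proton exchangers, was among the nearest genes of all 3 members, at 0.21 from Dnm1, 0.17 from Cnrip1 and 0.27 from Gprc5b. Dnm1 was also near the complement gene C4b (0.22) and the lectin gene Cd209d (0.25), and Cnrip1 near Wfs1 (0.14) and Cd209d (0.16). Gprc5b was also near Atp6v0d2, a subunit of the lysosomal proton pump, at 0.30 and Tnfrsf17, the receptor BCMA, at 0.32. The CX3CR1bright levels of Tnfrsf17, 3.01 and 3.30, lay below the array medians.

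**Figure D2:**
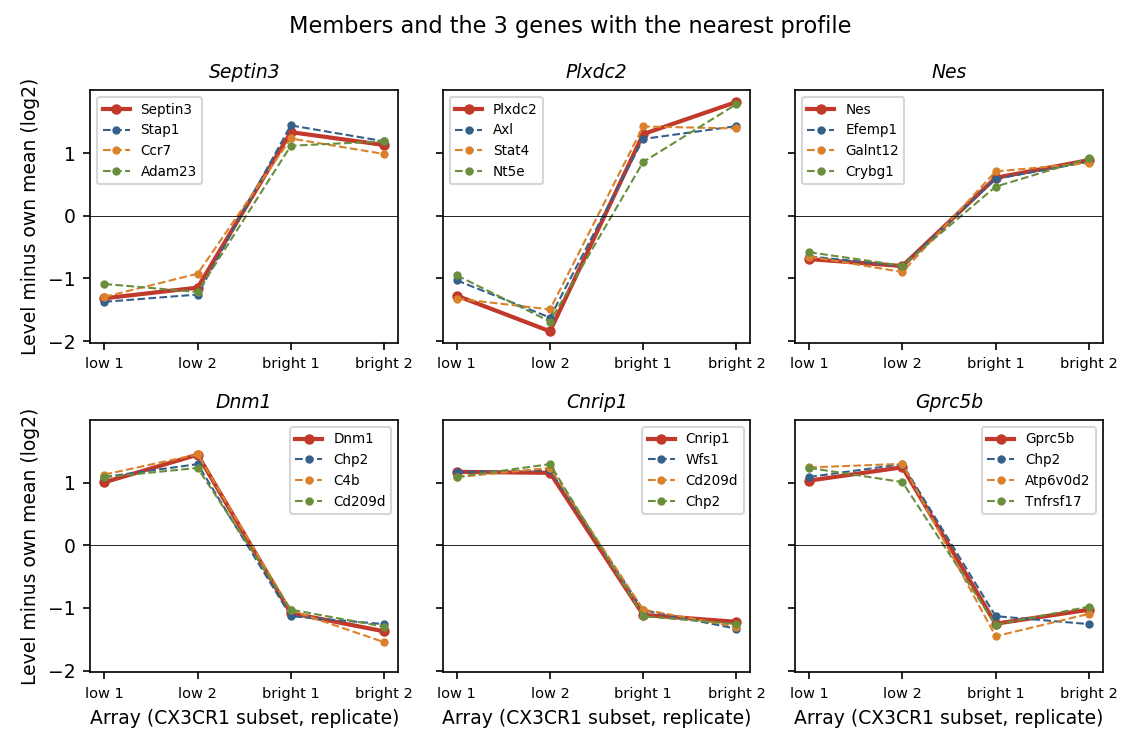
Level minus the gene's own mean over the 4 arrays (log2, vertical axis) for each member (red, solid) and the 3 other tested genes with the nearest profile (dashed), in 1 panel per member; lines join the arrays to guide the eye and replicates have no order. Efemp1 runs closest to its member, at 0.054 from Nes, and Plxdc2 has the widest gaps, with its nearest gene at 0.51. The distances hold the size of the subset difference, by which the members were chosen.

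Relatives of the members were read from the fit across all genes, with lists for 6 families and 2 neural cell types that name 112 genes, of which 75 were tested. In that fit (limma, adjusted over 13133 genes) 18 genes or 0.137% passed a threshold of 0.05, and 0 of the 75 did. At an unadjusted p under 0.05 (limma) 7 of the 75 were higher and 16 lower, 30.7%. Over all 13133 tested genes 923 were higher and 1544 lower, 18.8%, so more genes were lower than higher there too. The median difference of the 75 was -0.17, and that of all tested genes -0.070. A stricter filter gave 3 calls among 48 related genes, Septin6, Lmnb1 and Gprc5c, where it called 224 of all 9306 genes. An intensity trend gave 3 among the 75, Cltb, Lmnb1 and Gprc5c, where it called 308 of all 13133.

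Of the dynamins and their endocytic partners, 18 of 22 tested genes had a negative difference, with a median of -0.31, beside 7555 of all 13133 tested genes and a median of -0.070. The median of the list was -0.24 after quantile normalization, -0.32 after median centring and -0.22 after cyclic loess. The ubiquitous dynamin gene Dnm2 read 10.01 and 10.27 in CX3CR1low and 9.85 and 9.73 in CX3CR1bright cells, a difference of -0.35 ± 0.20 (SE; limma, adjusted p = 0.419). Dnm3, the other dynamin known from neurons, differed by -0.42 ± 0.25 (SE; limma, adjusted p = 0.420) at levels of 3.64 to 4.36, close to background. So Dnm2 and Dnm3 showed differences below 0.5 in size, against -2.45 for Dnm1, which was chosen on its difference. At its levels Dnm3 could not show a fall of that size above background. The smallest p values of the list belonged to the clathrin light chain gene Cltb at -0.90 ± 0.19 (SE; limma, adjusted p = 0.115), Synj2, a phosphoinositide phosphatase of vesicle uncoating, at 0.83 ± 0.19 (adjusted p = 0.131) and the membrane-bending gene Bin1 at -0.91 ± 0.21 (adjusted p = 0.136).

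The other septins went both ways, with 4 positive and 5 negative differences among 9 tested genes and a median of -0.057. The median turned with single arrays, from -0.16 without CX3CR1bright replicate 1 and -0.10 without CX3CR1low replicate 2 to 0.10 without CX3CR1low replicate 1 and 0.18 without CX3CR1bright replicate 2. Septin6 was on the side of Septin3, at 4.53 and 4.35 in CX3CR1low against 5.44 and 5.63 in CX3CR1bright cells (difference 1.10 ± 0.20 SE; limma, adjusted p = 0.0967). Septin9 differed by -1.02 ± 0.20 (limma, adjusted p = 0.107) and Septin8 by -0.99 ± 0.20 (limma, adjusted p = 0.111). The septins with the brightest clusters, Septin11, Septin2 and Septin7, which are expressed in most tissues, had differences of -0.25, -0.16 and 0.088. Septin12 and Septin14 were too dim for the filter.

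Of the GPRC5 receptors, Gprc5c lay on the same side as Gprc5b. It read 6.23 and 6.65 in CX3CR1low against 4.32 and 4.93 in CX3CR1bright cells, a difference of -1.82 ± 0.29 (SE; limma, adjusted p = 0.0910). Its adjusted p was 0.0444 with the stricter filter and 0.0431 with an intensity trend. Gprc5a had a positive difference of 0.42 ± 0.22 (limma, adjusted p = 0.385), and Gprc5d was too dim to be tested. The subunits of the GABA-B receptor, Gabbr1 and Gabbr2, both differed by -0.57 (limma, adjusted p = 0.262 and 0.341), the latter with CX3CR1bright levels under the array medians. Over the 5 tested genes of the list the median was -0.57, and it was -0.24 without CX3CR1bright replicate 1 and -0.36 without CX3CR1low replicate 2.

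Cannabinoid receptor genes were at or near background. Cnr1, which encodes CB1, read 3.68 and 3.09 in CX3CR1low and 3.15 and 2.94 in CX3CR1bright cells, in the background range, and was not tested. Cnr2, the cannabinoid receptor gene of immune cells, read 3.84 and 4.22 against 3.88 and 3.35 (difference -0.41 ± 0.27 SE; limma, adjusted p = 0.470). Of the enzymes that make or degrade endocannabinoids, Abhd6 differed by 0.74 ± 0.23 (adjusted p = 0.192), the diacylglycerol lipase gene Daglb by -0.55 ± 0.18 (limma, adjusted p = 0.212) and Abhd12 by -0.48 ± 0.20 (limma, adjusted p = 0.278). Of 8 tested genes 3 were positive and 5 negative, with a median of -0.17. That median was not stable, at 0.089 (4 positive and 4 negative) without CX3CR1bright replicate 2, -0.41 (1 and 7) without CX3CR1bright replicate 1, -0.097 without CX3CR1low replicate 1 and -0.12 without CX3CR1low replicate 2.

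Plxdc1, the closest relative of Plxdc2, lay on the opposite side. It read 6.72 and 6.30 in CX3CR1low and 5.75 and 5.86 in CX3CR1bright cells, a difference of -0.70 ± 0.22 (SE; limma, adjusted p = 0.192). Serpinf1, which encodes pigment epithelium-derived factor, differed by 0.73 ± 0.20 (limma, adjusted p = 0.167) and the basement membrane gene Nid1 by 0.79 ± 0.26 (limma, adjusted p = 0.197). Serpinf1 is also a fibroblast gene, and fibroblast markers stood 0.94 and 0.88 above the CX3CR1low mean on the CX3CR1bright arrays; their part in it was not tested. The median over the 5 listed genes was -0.0038, and was positive after quantile normalization (0.033) and cyclic loess (0.097). Single arrays moved it further, to 0.46 without CX3CR1bright replicate 1 and to -0.47 without CX3CR1bright replicate 2, and it was 0.074 and 0.081 without CX3CR1low replicates 1 and 2.

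Among the filament genes related to Nes, Lmnb1, a nuclear lamina gene, read 5.52 and 5.46 in CX3CR1low and 6.95 and 6.94 in CX3CR1bright cells, a difference of 1.46 ± 0.18 (SE; limma, adjusted p = 0.0706). Its adjusted p was 0.0310 with the stricter filter and 0.0306 with an intensity trend. Vim, the vimentin gene, whose product pairs with nestin in filaments, was bright in both subsets at 11.34 to 11.70 and differed by -0.30 ± 0.18 (limma, adjusted p = 0.428). The muscle filament gene Des differed by -0.78 ± 0.19 (limma, adjusted p = 0.137), with CX3CR1bright levels under the array medians. Nefl and Nefm, the light and medium neurofilament genes, were too dim to be tested. The list had 9 tested genes and a median of -0.013, which ranged from -0.15 without CX3CR1low replicate 1 to 0.12 without CX3CR1low replicate 2, with -0.048 and -0.046 without CX3CR1bright replicates 1 and 2.

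**Figure D3:**
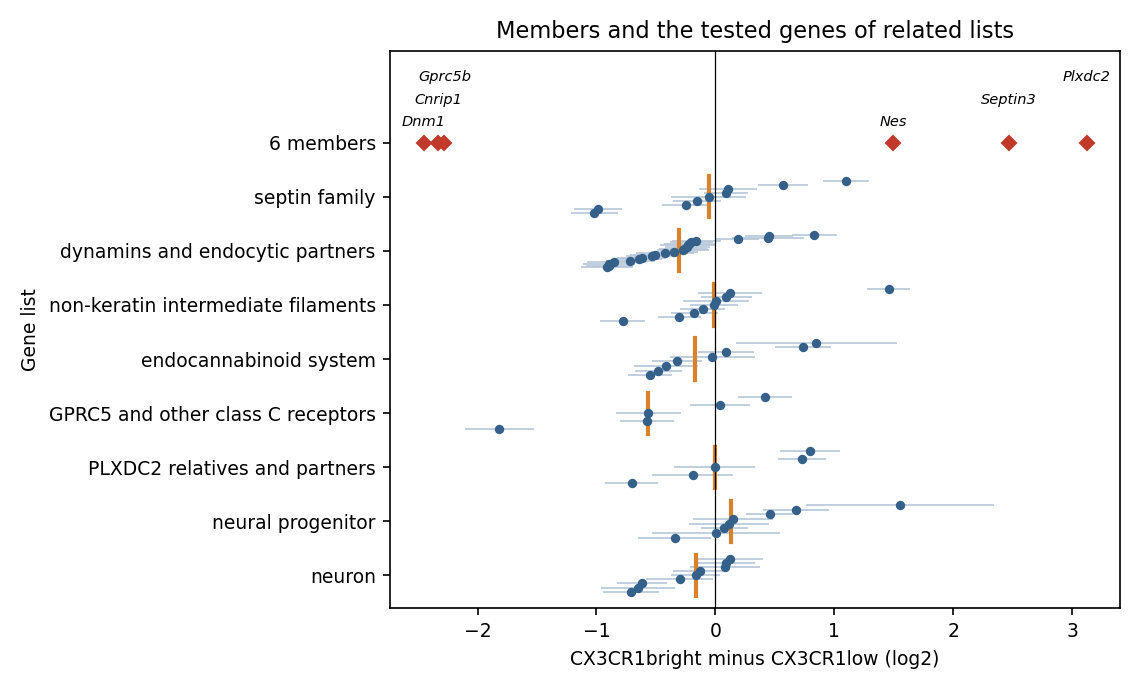
CX3CR1bright minus CX3CR1low (log2, horizontal axis) for the 6 members (red diamonds) and for the tested genes of each related list (blue points with moderated SE bars); orange bars mark list medians. Members lie at 1.49 to 3.12 and at -2.28 to -2.45, and the list medians between -0.57 and 0.13.

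Of the genes that define neurons and progenitors, most were dim and 0 of the tested ones passed the threshold (limma; 2 at an unadjusted p under 0.05). Of 17 neuron genes on the array 9 were tested, 3 positive and 6 negative, with a median of -0.17. Without CX3CR1low replicate 2 all 9 were negative (median -0.30), and the median was -0.36 without CX3CR1bright replicate 1, -0.079 without CX3CR1bright replicate 2 and -0.083 without CX3CR1low replicate 1. Snap25, Syt1, Elavl4 and Gap43, among the defining genes of synapses and axons, were below the median of every array. The smallest p values were those of Stmn2 at -0.71 ± 0.23 (SE; limma, adjusted p = 0.201), Syn1 at -0.62 ± 0.21 (limma, adjusted p = 0.213) and Tubb3 at -0.65 ± 0.31 (limma, adjusted p = 0.340). Stmn2 and Tubb3 read below the array medians on both CX3CR1bright arrays and passed the filter only through CX3CR1low, so their differences are taken against background. Of 17 progenitor genes 8 were tested, 7 positive and 1 negative, with a median of 0.13, where 5578 of all 13133 tested genes were positive. This count fell to 6 after quantile normalization and after median centring, to 5 without CX3CR1low replicate 2 and to 4 of 8 without CX3CR1bright replicate 2. The median was 0.57 without CX3CR1bright replicate 1 and 0.20 without CX3CR1low replicate 1. Sox1, Sox2, Pax6, Prom1, Dcx and Olig2 were below the median of every array. The smallest p values belonged to Msi1 at 0.68 ± 0.28 (SE; limma, adjusted p = 0.278), Hes1 at 0.46 ± 0.20 (limma, adjusted p = 0.302) and Sox9 at 1.55 ± 0.79 (limma, adjusted p = 0.365). Sox9, also a gene of hair follicle keratinocytes, read 7.64 on CX3CR1bright replicate 2 and 4.58 to 5.19 on the other arrays.

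Keratinocyte markers were unevenly spread over the CX3CR1bright arrays. The keratinocyte list, 11 genes that included Krt14 and Krt15, had a mean level of 5.40 and 5.89 on the CX3CR1low arrays and of 6.29 and 8.06 on CX3CR1bright replicates 1 and 2. Its median stood 0.54 and 2.82 above the CX3CR1low mean on those replicates. On the same replicates Septin3 stood 2.57 and 2.36 above its CX3CR1low mean, Plxdc2 2.86 and 3.38, and Nes 1.35 and 1.64. Dnm1 stood at -2.31 and -2.60, Cnrip1 at -2.28 and -2.39, and Gprc5b at -2.39 and -2.17. With any 1 array left out, Septin3 differed by 2.36 to 2.57, Plxdc2 by 2.84 to 3.40, Nes by 1.35 to 1.64, Dnm1 by -2.67 to -2.23, Cnrip1 by -2.39 to -2.28 and Gprc5b by -2.39 to -2.17. Plxdc2, Nes, Dnm1 and Cnrip1 thus lay further from the CX3CR1low mean on replicate 2, where the keratinocyte list was higher, and Septin3 and Gprc5b on replicate 1. The part of keratinocyte RNA in these levels was not tested.

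Fibroblast, dendritic cell and Langerhans cell markers lay higher, in the median of each list, on both CX3CR1bright arrays. Fibroblast genes stood 0.94 and 0.88 above the CX3CR1low mean in the median over 10 genes (mean level 5.53 to 5.70 in CX3CR1low and 6.35 to 6.44 in CX3CR1bright), with Col1a1 higher by 1.33 ± 0.19 (SE; limma, adjusted p = 0.0819). Conventional dendritic cell genes stood 0.82 and 1.03 above it over 10 genes (mean level 4.85 to 4.89 and 5.86 to 6.16), with the smallest p values for Ccr7 at 2.22 ± 0.22 (SE; limma, adjusted p = 0.0541), the neighbour of Septin3, and Flt3 at 2.13 ± 0.24 (adjusted p = 0.0632). Xcr1, a marker of cross-presenting dendritic cells, did not share this, at 4.62 and 4.48 against 4.68 and 4.22. Langerhans cell genes stood 0.59 and 2.16 above the CX3CR1low mean over 6 genes (mean level 6.23 to 6.36 and 7.13 to 8.16), with Cd207 at 2.24 ± 0.28 (SE; limma, adjusted p = 0.0706). Mfge8 lay on the other side, at 7.38 and 7.50 in CX3CR1low against 6.79 and 7.19 in CX3CR1bright cells. Epcam and Cdh1 read 4.53 and 6.47 on CX3CR1bright replicate 1. They read 6.73 and 9.24 on replicate 2, where the keratinocyte list was also higher. Of 6 tested Langerhans cell genes 5 were positive and 1 negative, where 5578 of all 13133 tested genes were positive. Of the first 4 markers of these 3 lists, none lay below the median of every array. Their part in the higher levels of Septin3, Plxdc2 and Nes was not tested.

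Cells of skin nerves and vessels also express some of the 6 genes. Their list medians were smaller in size than those of the fibroblast, dendritic cell and Langerhans cell lists. Schwann cell genes stood 0.30 and 0.28 above the CX3CR1low mean over 14 genes (mean level 4.17 to 4.56 and 4.66 to 4.67). S100b was below every array median, and the defining gene Sox10 read 3.75 and 3.49 against 3.89 and 4.25 (limma, adjusted p = 0.355). Scn7a differed by 0.83 ± 0.19 (SE, limma, adjusted p = 0.134) and Pmp22 by -0.48 ± 0.18 (SE, limma, adjusted p = 0.245), the smallest p values of the list. Unlike Sox10 and S100b, Pmp22 was bright in both subsets, at 11.45 on both CX3CR1low arrays and 10.96 and 10.99 on the CX3CR1bright arrays. Which cells its RNA came from was not tested. Of the 10 tested Schwann cell genes 8 were positive and 2 negative, where 5578 of all 13133 tested genes were positive. The median over the 10 was 0.37, and it was 0.16 without CX3CR1low replicate 2. Pericyte and smooth muscle genes, whose list matters for Nes, stood 0.12 and 0.19 above the CX3CR1low mean over 10 genes (mean level 4.45 to 4.54 and 4.63 to 4.64), with Kcnj8 in the background range. Rgs5, a defining pericyte gene, read 4.98 and 4.65 in CX3CR1low and 5.24 and 4.02 in CX3CR1bright cells. Pdgfrb read 5.99 and 5.83 against 6.87 and 6.10 (limma, adjusted p = 0.370). Cspg4 read 5.72 and 6.01 against 6.20 and 6.73 (limma, adjusted p = 0.294). Of 8 tested genes 7 were positive and 1 negative, and 6 were positive after quantile normalization and 5 without CX3CR1low replicate 2. The part of these cells in the level of Nes was not tested. Endothelial genes stood at 0.12 and -0.17 over 13 genes, while single genes moved further. Cdh5 differed by -1.70 ± 0.62 (SE, limma, adjusted p = 0.234) and Cldn5 by 0.87 ± 0.33 (SE, limma, adjusted p = 0.249). Melanocyte genes stood at -0.082 and 0.35 over 7, mast cell genes at -0.34 and -0.42 over 8, T cell genes at 1.16 and 0.065 over 6 and macrophage genes at -0.12 and -0.18 over 14. The T cell list was thus higher on CX3CR1bright replicate 1 than on replicate 2, and its part in the members' levels was not tested.

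**Figure D4:**
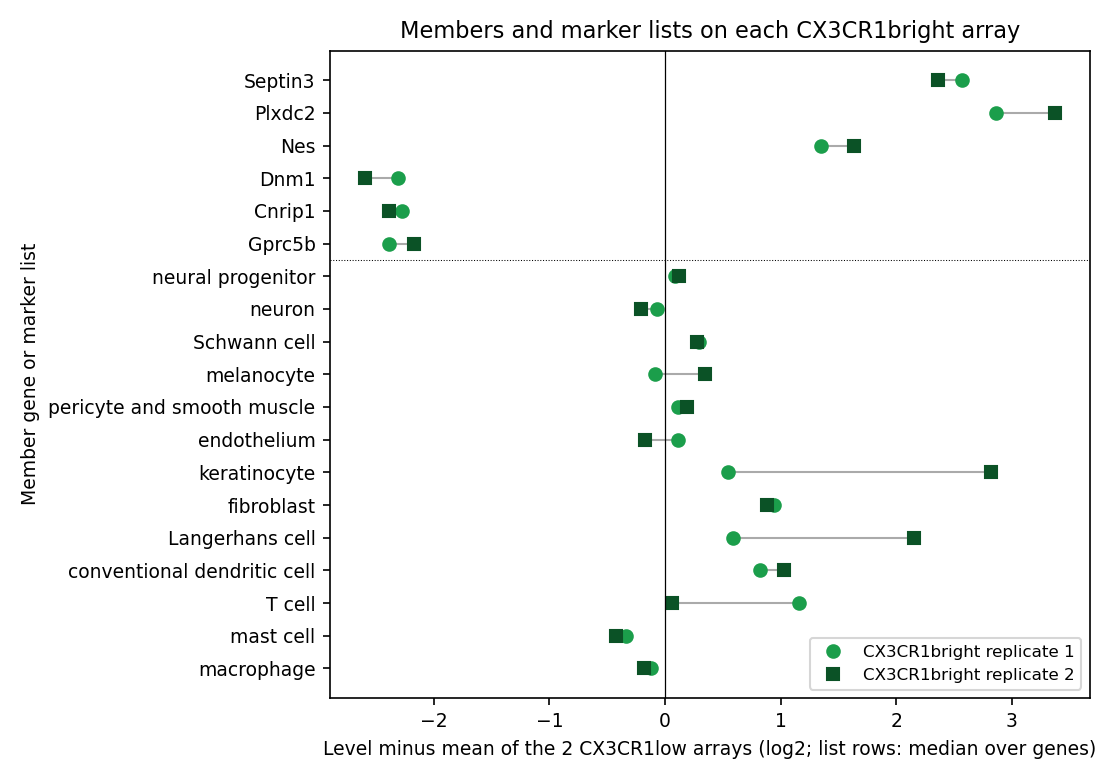
Level on each CX3CR1bright array minus the mean of the 2 CX3CR1low arrays (log2, horizontal axis) for the 6 members (top) and, as the median over genes, for the neural and cell type lists (bottom); circles are replicate 1 and squares replicate 2. The keratinocyte list stands at 0.54 on replicate 1 and 2.82 on replicate 2, Septin3 at 2.57 and 2.36, Plxdc2 at 2.86 and 3.38, and the lower members between -2.17 and -2.60.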

How the data were processed

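Expression was measured on 4 Affymetrix whole-transcript arrays, 2 per subset, from RNA amplified with a WT Pico kit, per the labels' protocols. Per the submitters' processing notes, the authors made the deposited log2 values in Affymetrix Expression Console 1.4 by RMA; the genome build is not given in the sources used here. The distributions of the deposited arrays were close but not equal, with 95th percentiles of 8.65 and 8.67 in CX3CR1low and of 8.54 on both CX3CR1bright arrays. Differences are relative to the other transcripts, and a further normalization moves the counts.

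Of 34390 transcript clusters 23521 carried a single symbol. Each gene took its brightest cluster, and entered the test where 2 or more of the 4 arrays read above that array's median. Each of the 6 members had 1 cluster. The subsets were compared across all tested genes by a two-sided limma fit (version 3.58.1, R 4.3.3, Benjamini-Hochberg adjustment). The fit was also run on simulated data whose shifts were larger than the difference of any member. That run does not show how often smaller differences are found. Precision is limited by the 2 pools per subset, and a p-value here reflects how pools vary, not single animals.

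The members and the 19 lists (6 families, 2 neural, 11 of cell types) were chosen with earlier results of these data known. The rule for named genes took the members, their 3 nearest profiles, paralogs, and from each list the 3 genes with the smallest p and its first 4 markers; for cell type lists, medians and some of these genes are given. Alternatives were other scalings, filters and variance models, the mean of a gene's clusters, a replicate block and each array left out. Promoters came from RefSeq (GRCm38.p6).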

Additional observations from a re-analysis of the deposited data

How the results depend on the processing

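The members were chosen on their difference, without overlap, and have 1 cluster each, so the mean of clusters, the replicate block and leaving out an array could not turn their direction. Of the 3 rescalings of the arrays, cyclic loess moved Cnrip1 to -2.20, beyond the larger of its 2 subset SDs. The other shifts were smaller than the larger subset SD of the gene. Quantile normalization moved Cnrip1 to -2.26, beyond its CX3CR1low SD of 0.012 but not its CX3CR1bright SD of 0.078. The count of genes past the threshold, 18, was less stable (limma): 1 after quantile normalization, 33 after cyclic loess (19 higher and 14 lower, where the deposited values gave 8 and 10), 1 without a filter, 224 with all 4 arrays above their 60th percentile, 308 with an intensity trend, 1 with a robust prior, and 0 to 154 with 1 array left out. The 154 came from leaving out CX3CR1bright replicate 1. Leaving out CX3CR1low replicate 1 gave 0 (1453 at an unadjusted p under 0.05), as did CX3CR1low replicate 2 (1212) and CX3CR1bright replicate 2 (2180). With the replicate number as a block 0 genes passed (limma, 2637 at an unadjusted p under 0.05); deviations of same-numbered arrays correlated at 0.155 across genes, and the labels do not say that a number marks a shared litter. Of the related genes 0 passed as deposited, 3 with the stricter filter, 3 with an intensity trend and 0 to 1 with 1 array left out. The cause was not tested. Signal over background limits Nes and, in CX3CR1low cells, Septin3.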
